A study of Saccharomyces cerevisiae with 6 samples.

Results

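The 10 genes described here are those of de novo pyrimidine synthesis in budding yeast: URA1, URA2, URA3, URA4, URA5, URA6, URA7, URA8 and URA10, which encode the enzymes, and PPR1, which encodes a transcriptional activator of some of them. They were chosen by gene symbol, with earlier results of these data known, and each was read by 1 probe set, 10 of the 5449 genes measured. Transcript levels were compared between npl3 deletion cells and wild type cells. NPL3 encodes an SR-like protein that binds nascent mRNA and travels with it to the cytoplasm. Each genotype was represented by 3 Affymetrix arrays, which the labels call biological replicates. The deletion strain was WNPL3B1-2B, in which the KanMX marker replaces NPL3, and the wild type was W303-1A. By their labels, both were MATa and lacked BAR1 (replaced by HphMX). Both labels also name ura3-1, the auxotrophic alleles leu2-3,112, his3-11,15, trp1-1 and ade2-1, and the resistance allele can1-100. All cultures were in mid-log phase in rich liquid medium, in which adenine was added per the growth protocol. The labels name 1 strain per genotype, so differences between genotypes cannot be told apart from other differences between these strains.

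Pyrimidine nucleotides are made from glutamine, bicarbonate and aspartate by way of orotate to UMP, the precursor of UTP, CTP and the pyrimidine deoxynucleotides. Budding yeast controls the flux mainly at the bifunctional enzyme Ura2, which UTP inhibits and whose gene is repressed when uracil is plentiful. The zinc cluster protein Ppr1, activated by the intermediates dihydroorotate and orotate, raises transcription of URA1, URA3, URA4 and URA10. Both strains carry a ura3 allele and therefore depend on uracil from the medium, so the enzymes after UMP act in them on salvaged uracil.

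The labels were checked first. NPL3 read 3.80, 4.04 and 4.04 on the 3 deletion arrays, against 10.75, 11.37 and 11.33 on the wild type arrays (log2 expression, the unit of all levels below), and BAR1 was under the background level of 2.13 in both genotypes. The deleted NPL3 thus still read above that level. LEU2 read 8.51 ± 0.12 in the deletion and 2.85 ± 0.07 in wild type (SD, n = 3 arrays each), although both labels name leu2-3,112. The labels thus do not account for this LEU2 difference. Of the other genes of the strain labels, HIS3 fell by 0.78 (limma adjusted p = 9.8e-05), CAN1 fell by 0.42 (adjusted p = 0.0033) and ADE2 rose by 0.26 (adjusted p = 0.0063). All 5 MATa markers were at 8.87 or above in the deletion and 9.42 or above in wild type, but 4 of them were lower in the deletion. MFA1 and MFA2, the a-factor genes, fell by 0.88 and fell by 0.62, AGA2 fell by 0.55 and STE6 fell by 0.34, while STE2 was at 11.18 in the deletion and 11.14 in wild type (adjusted p = 0.43). Of the 4 alpha-cell markers, MF(ALPHA)1 was at 3.13 in the deletion and 4.02 in wild type (adjusted p = 5.7e-04), MF(ALPHA)2 fell by 0.21, and STE3 was at 4.41 in the deletion and 4.35 in wild type. SAG1, also an alpha-specific gene, was well above background and higher in the deletion, at 7.86 in the deletion and 7.38 in wild type (adjusted p = 0.0029). Arrays correlated across genes with Pearson r of 0.996 to 0.998 within genotypes and 0.956 to 0.961 between them, where genes are not independent replicates. Spiked hybridization controls averaged 7.57, 8.57 and 8.79 on deletion arrays 1 to 3, against 8.86, 8.87 and 9.01 on the wild type arrays. The labelling controls went the other way, with 4.82, 4.46 and 4.65 on the deletion arrays, against 4.0, 4.17 and 4.09 on the wild type arrays. The part of the markers and controls in the results was not tested, and values without deletion replicate 1 are given where they alter a call of a named pyrimidine gene.

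Of the 10 pyrimidine genes, 3 were higher in the deletion (URA8, URA10 and PPR1), 4 were lower (URA2, URA3, URA4 and URA7) and 3 did not pass the test (URA1, URA5 and URA6). The test was limma's, two-sided, and a gene was called at a Benjamini-Hochberg adjusted p of at most 0.05, adjusted over all 5449 genes. Across all genes tested it called 61.8%, with 32.9% higher and 28.9% lower, so 7 of 10 is close to the share in the whole transcriptome. The median difference of the 10 genes, deletion minus wild type, was 0.05 on the log2 scale, against 0.01 over all genes, and their median absolute difference was 0.25, against 0.23. With the added condition of a fold change of at least 1.5, only URA8 remained among the 10, where 16.9% of all genes did. As the values come from whole cultures, a change within all cells and a change in a share of the cells cannot be told apart. The values were processed with RMA per the submitters' notes and hold no count of cells, so RNA per cell was not measured.

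**Figure D1:**
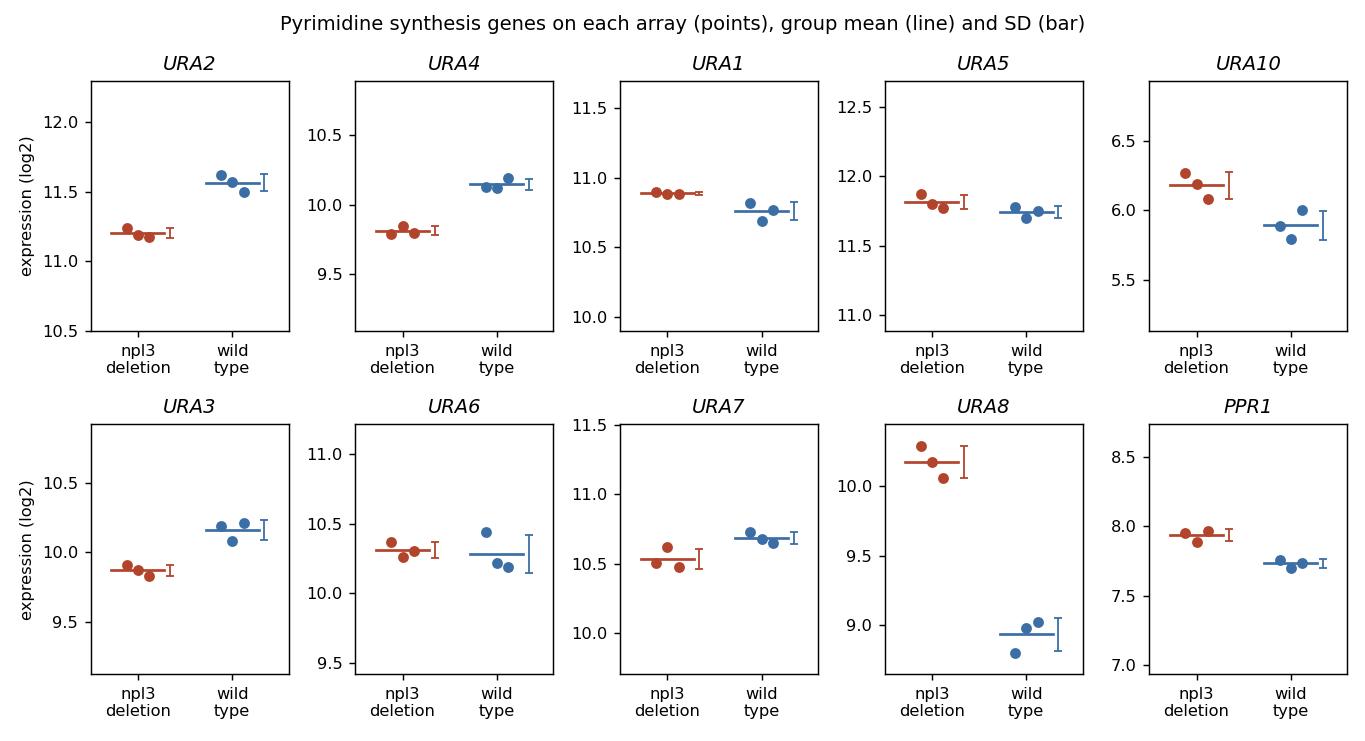
Expression of the 10 genes on each array (vertical axes, log2, all panels spanning the same width), with npl3 deletion arrays on the left and wild type arrays on the right of each panel. Points are arrays, horizontal lines are group means and bars are SD (n = 3). URA8 has the widest gap, with deletion arrays at 10.06 to 10.29 and wild type arrays at 8.80 to 9.02, whereas the groups overlap for URA5 and URA6.

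URA8 changed most. It encodes the minor of the CTP synthases, which convert UTP to CTP at the end of the pathway. Its transcript (YJR103W, chromosome X) read 10.29, 10.17 and 10.06 on the deletion arrays, against 8.80, 8.98 and 9.02 on the wild type arrays. Every deletion array was above every wild type array, with a gap of 1.04 between the groups and a spread of 0.22 within each. The rise was 1.24 (SE 0.08, 95% interval 1.06 to 1.42, limma adjusted p = 1.0e-05), a fold of 2.36. In the order of all 5449 differences it was rank 88 from the top, and 3.85% of genes had a larger absolute difference.

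URA7 (YBL039C, chromosome II) encodes the major CTP synthase and moved the other way by little. It read 10.51, 10.62 and 10.48 in the deletion, against 10.73, 10.68 and 10.65 in wild type. The groups were separated by only 0.03, less than the spread of 0.14 among the deletion arrays. URA7 fell by 0.15 (SE 0.05, 95% interval -0.28 to -0.02, adjusted p = 0.042), to 90.1% of the wild type level. This call is marginal: it ended in 8 of 15 alternative fits, among them those without deletion replicate 1 (adjusted p = 0.1), deletion replicate 3 (0.13) and wild type replicates 1, 2 and 3 (0.11, 0.076 and 0.065).

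The ratio between the CTP synthase transcripts therefore shifted within each array. URA7 minus URA8, on the log2 scale, was 0.23, 0.45 and 0.41 on the deletion arrays, against 1.93, 1.70 and 1.63 on the wild type arrays. The change was -1.39, with no overlap between the groups (exact permutation p = 0.1, two-sided, the smallest that 3 against 3 arrays can give). Since signal per transcript differs between probe sets, the change of this ratio can be read but not its absolute level. The neighbours of URA8 on the chromosome did not rise with it. VPS25, which encodes an ESCRT-II subunit, differed by 0.03 (95% interval -0.12 to 0.18, adjusted p = 0.68), and SOD1, the copper-zinc superoxide dismutase gene, fell by 0.37 (SE 0.04, adjusted p = 2.6e-04).

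**Figure D2:**
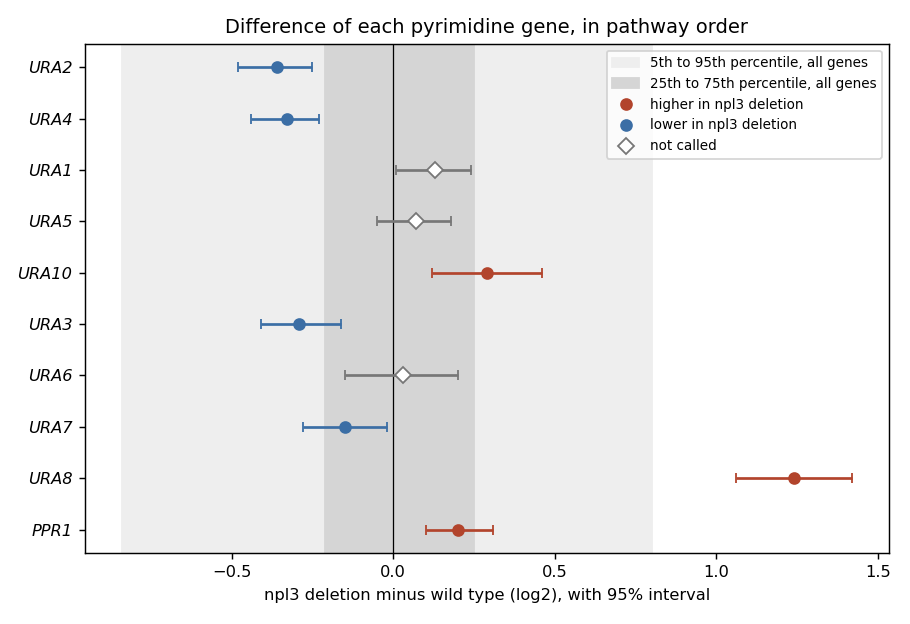
Difference of each gene in pathway order (horizontal axis, npl3 deletion minus wild type, log2), with 95% intervals from limma. Grey bands mark the 5th to 95th percentile (-0.84 to 0.80) and the 25th to 75th percentile (-0.21 to 0.25) of all 5449 genes. URA8, at 1.24, lies outside the wider band, and the other 9 genes lie within it.

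The genes at the head of the pathway were lower in the deletion. URA2 (YJL130C, chromosome X) encodes the carbamoyl phosphate synthetase and aspartate transcarbamylase, the regulated entry enzyme. It read 11.24, 11.19 and 11.17 in the deletion, against 11.62, 11.57 and 11.50 in wild type. All deletion arrays lay below all wild type arrays, 0.26 apart. URA2 fell by 0.36 (SE 0.05, 95% interval -0.48 to -0.25, limma adjusted p = 5.4e-04), to 77.7% of the wild type level.

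URA4 (YLR420W, chromosome XII) encodes dihydroorotase, which closes the pyrimidine ring. It read 9.79, 9.85 and 9.80 in the deletion, against 10.13, 10.12 and 10.19 in wild type. The arrays of each group lay within 0.06 of each other, and the groups were 0.27 apart. URA4 fell by 0.33 (SE 0.05, adjusted p = 4.9e-04), to 79.3% of the wild type level.

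URA1 (YKL216W, chromosome XI) encodes the cytosolic dihydroorotate dehydrogenase, which makes orotate. It read 10.90, 10.88 and 10.88 in the deletion, against 10.82, 10.69 and 10.77 in wild type. The deletion arrays were all above the wild type arrays, by 0.05, but the difference of 0.13 (SE 0.05, 95% interval 0.01 to 0.24) did not pass the test (adjusted p = 0.058). It passed in 4 of 15 alternative fits, one of them without wild type replicate 1 (adjusted p = 0.034, difference 0.16).

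Orotate phosphoribosyltransferase, which joins orotate to ribose phosphate, is encoded by the paralogs URA5, the major form, and URA10, the minor form. URA5 (YML106W, chromosome XIII) read 11.87, 11.80 and 11.77 in the deletion, against 11.78, 11.70 and 11.75 in wild type, and the groups overlapped. Its difference was 0.07 (SE 0.05, 95% interval -0.05 to 0.18, adjusted p = 0.26). URA10 (YMR271C, chromosome XIII) was the dimmest of the 10 probe sets. Its lowest array, at a level of 5.79, was 3.66 above the background level of 2.13. The deleted NPL3 also read above background, at levels of 3.80 to 4.04, below every URA10 array. URA10 read 6.27, 6.19 and 6.08 in the deletion, against 5.89, 5.79 and 6.0 in wild type. The groups were 0.08 apart, less than the spread of 0.20 within each. URA10 rose by 0.29 (SE 0.07, 95% interval 0.12 to 0.46, adjusted p = 0.0096), a fold of 1.22. The ratio within arrays, URA5 minus URA10 on the log2 scale, was 5.60, 5.60 and 5.69 in the deletion, against 5.89, 5.91 and 5.75 in wild type, a change of -0.22 (exact permutation p = 0.1, two-sided, the smallest possible). In both enzyme pairs the groups did not overlap for this ratio. The share of other gene pairs without overlap was not computed, and the 68.8% of single genes without overlap is an unlike measure. The URA5 minus URA10 groups came as close as 5.69 and 5.75. In both pairs the signal of the major form relative to that of the minor form was lower in the deletion. Of the major forms themselves, URA5 did not pass the test and the call of URA7 was marginal.

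URA3 (YEL021W, chromosome V) encodes orotidine 5′-phosphate decarboxylase, which makes UMP, and is a mutant allele in both strains. The transcript was measured in both, at 9.91, 9.87 and 9.83 in the deletion, against 10.19, 10.08 and 10.21 in wild type. The groups were 0.17 apart. URA3 fell by 0.29 (SE 0.05, 95% interval -0.41 to -0.16, limma adjusted p = 0.0023), to 82.0% of the wild type level. Of its neighbours, GEA2, which encodes an Arf exchange factor, differed by -0.07 (adjusted p = 0.32) and TIM9, a mitochondrial import chaperone gene, by 0.12 (adjusted p = 0.084), and neither passed the test.

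The array also holds 3 control probe sets along the URA3 transcript, which gave a second reading of the gene. At the 3′ end they read 9.06, 9.09 and 8.99 in the deletion, against 9.37, 9.27 and 9.31 in wild type. At the 5′ end the values were 9.62, 9.64 and 9.60 in the deletion, against 9.70, 9.59 and 9.67 in wild type, and the groups overlapped. The fall passed the test only at the 3′ end, by 0.27 (SE 0.06, limma adjusted p = 0.014). The middle differed by -0.16 (95% interval -0.31 to -0.01, adjusted p = 0.12), with the groups 0.04 apart. The 5′ end differed by -0.03 (95% interval -0.17 to 0.11, adjusted p = 0.77). These p-values were adjusted over all 10928 probe sets, of which 27.6% were called. Only 5498 of these probe sets matched a gene of the reference, so this share cannot be set against the 61.8% called over genes.

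A shift between the transcript ends was not restricted to URA3. The 5′ minus 3′ difference of URA3 was 0.56, 0.55 and 0.60 in the deletion, against 0.33, 0.31 and 0.36 in wild type, a change of 0.24 (exact permutation p = 0.1, two-sided, the smallest possible). The same quantity was higher in the deletion for all 7 other yeast genes with such control probe sets, by 0.24 to 1.42 with a median of 0.42, without overlap between the groups for any of them. In those 7 genes the 3′ probe sets differed by -1.10 to 0.24 (median -0.05) and the 5′ probe sets by -0.78 to 1.29 (median 0.53). The called differences of pyrimidine genes other than URA8 were -0.36 to 0.29. Each comes from a single probe set, a measure unlike the shift between transcript ends, so the sizes cannot be set against each other. The control probe sets hold no 5′ reading of those genes beyond URA3, and the part of the shift in their differences was not tested.

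**Figure D3:**
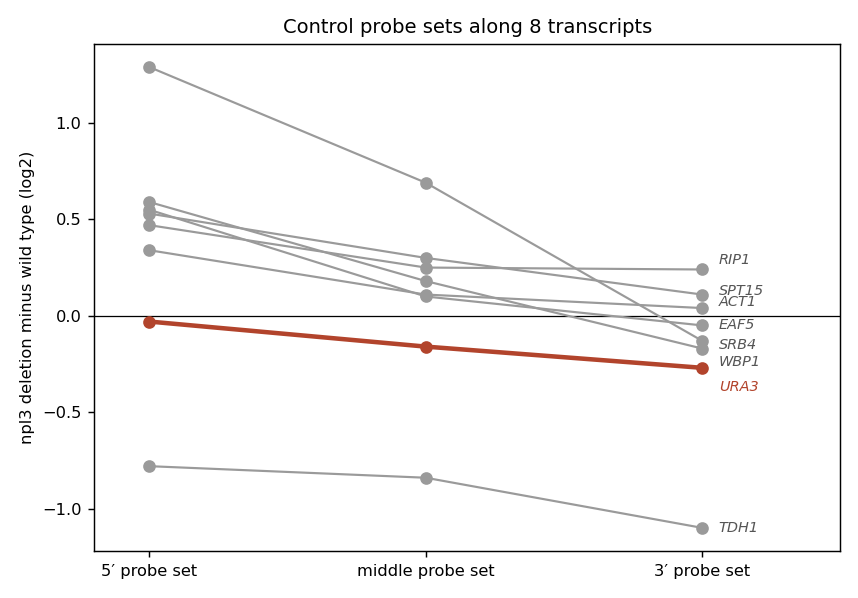
Difference between genotypes (vertical axis, npl3 deletion minus wild type, log2) for the 5′, middle and 3′ control probe sets of 8 yeast transcripts, joined by a line per gene. URA3 (red) runs through -0.03, -0.16 and -0.27, and every other gene (grey) also has a higher value at its 5′ end than at its 3′ end.

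URA6 (YKL024C, chromosome XI) encodes the UMP kinase, which passes UMP on to UDP and is needed whether UMP comes from synthesis or salvage. It read 10.37, 10.26 and 10.30 in the deletion, against 10.44, 10.22 and 10.19 in wild type. The groups overlapped, and wild type replicate 1 was above all other arrays. The difference was 0.03 (SE 0.07, 95% interval -0.15 to 0.20, limma adjusted p = 0.78).

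PPR1 (YLR014C, chromosome XII) read 7.95, 7.89 and 7.97 in the deletion, against 7.76, 7.70 and 7.74 in wild type. All deletion arrays were higher, 0.13 above the wild type arrays. PPR1 rose by 0.20 (SE 0.05, 95% interval 0.10 to 0.31, limma adjusted p = 0.0057), a fold of 1.15. The 4 known targets of its product did not move together: URA10 rose by 0.29, URA3 and URA4 fell by 0.29 and fell by 0.33, and URA1 differed by 0.13 without passing the test. Their median was -0.08. For 8 of the 10 pyrimidine genes, all but URA5 and URA6, the groups did not overlap, where 68.8% of all genes had no overlap.

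Genes around the pathway were read from the same fit. Of 10 genes of pyrimidine uptake and salvage, by which ura3 cells obtain their UMP, 6 fell, 1 rose and 3 did not pass the test, with a median of -0.25. The share called, 70%, was close to the 61.8% of all genes, of which 28.9% were lower. The genes for uracil, uridine and cytosine permeases were among those that fell. FUR4, the uracil permease gene, read 8.03, 7.88 and 7.93 in the deletion, against 8.69, 8.63 and 8.63 in wild type, and fell by 0.71 (SE 0.05, limma adjusted p = 2.7e-05). FCY21, which encodes a relative of the cytosine permease, fell by 1.32, FCY2, the purine-cytosine permease gene itself, fell by 0.59, and FUI1, the uridine permease gene, fell by 0.36. CDD1, the cytidine deaminase gene, was the member that rose, by 1.22 (SE 0.08, adjusted p = 1.3e-05), with 7.96, 7.90 and 7.88 in the deletion, against 6.54, 6.87 and 6.68 in wild type. FUR1, the uracil phosphoribosyltransferase gene that makes UMP from uracil, fell by 0.14 (adjusted p = 0.027), and URK1, the uridine kinase gene, differed by -0.01 (adjusted p = 0.91). The call of FUR1 ended without deletion replicate 2 or 3 (adjusted p = 0.08 and 0.085) and without wild type replicate 1 or 3 (adjusted p = 0.061 and 0.072).

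Of 6 genes that carry pyrimidines to thymidylate or to triphosphates, 1 rose, 1 fell and 4 did not pass the test (median 0.08), so that 33.3% were called, where 61.8% of all genes were. DFR1, which encodes dihydrofolate reductase and regenerates the folate used in thymidylate synthesis, read 6.93, 6.81 and 6.97 in the deletion, against 8.44, 8.27 and 8.31 in wild type. It fell by 1.44 (SE 0.07, limma adjusted p = 2.1e-06), to 36.7% of the wild type level. CDC21, the thymidylate synthase gene, rose by 0.31 (SE 0.07, adjusted p = 0.0050). YNK1, the nucleoside diphosphate kinase gene, differed by 0.05 (adjusted p = 0.44).

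Carbamoyl phosphate is also made for arginine by a separate enzyme. Of 7 genes of that branch, 5 fell, none rose and 2 did not pass the test (median -0.52), so that 71.4% were called and all of these were lower, where 61.8% of all genes were called and 28.9% were lower. CPA1, the small subunit gene of the arginine-specific carbamoyl phosphate synthetase, read 9.66, 9.72 and 9.56 in the deletion, against 10.04, 10.31 and 10.14 in wild type, and fell by 0.52 (SE 0.08, limma adjusted p = 7.6e-04). ARG4 and ARG1, for the last steps of arginine synthesis, fell by 1.21 and fell by 0.60. The call of ARG2, which encodes the first enzyme of ornithine synthesis, ended without deletion replicate 2 or 3 (adjusted p = 0.064 and 0.072) and without wild type replicate 2 or 3 (adjusted p = 0.059 and 0.065). ARG8, an ornithine synthesis gene that did not pass the test, passed as higher without wild type replicate 1 (difference 0.24, adjusted p = 0.011).

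Of 10 genes for enzymes that make or use UDP-sugars or make CDP-activated lipid precursors, 3 rose, 3 fell and 4 did not pass the test (median -0.01). The share called, 60%, was close to the 61.8% of all genes. CHS1, a chitin synthase gene, rose by 0.83 (SE 0.05, limma adjusted p = 5.3e-06), with 10.59, 10.56 and 10.61 in the deletion, against 9.72, 9.75 and 9.81 in wild type. PCT1, which encodes a CTP-consuming enzyme of phosphatidylcholine synthesis, rose by 0.28 (adjusted p = 0.0034). UGP1, which makes UDP-glucose from UTP, fell by 0.30, and GSY1, a glycogen synthase gene, fell by 0.72. The call of ECT1, a gene of phosphatidylethanolamine synthesis and one of the 3 that rose, ended without deletion replicate 2 or 3 (adjusted p = 0.056 and 0.061) and without wild type replicate 2 or 3 (adjusted p = 0.055 and 0.065).

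**Figure D4:**
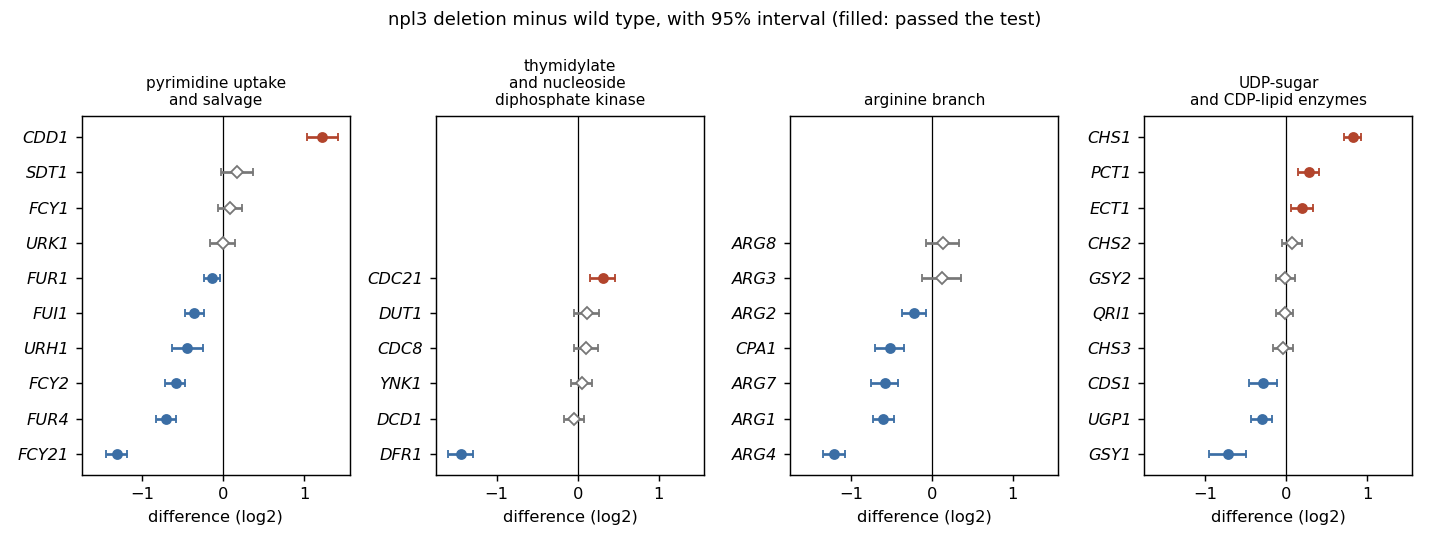
Differences (horizontal axes, npl3 deletion minus wild type, log2, with 95% intervals) of genes in 4 groups around the pathway. Red and blue circles passed the test as higher and lower in the deletion, and open diamonds did not. CDD1 (1.22) stands apart from the permease genes of its group, and DFR1 (-1.44) from the other thymidylate genes.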

How the data were processed

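The deposited values are log2 expression, 1 per probe set and array, from total RNA labelled as biotinylated cRNA. Per the submitters' processing notes the tools were RMA and limma, with versions and settings not given in the sources used here. Medians of the 6 arrays were 4.81 to 4.98 over 10928 probe sets, and the values were not normalized again. Probe sets were named through the platform annotation and the RefSeq gene table of assembly R64 (5498 matched by gene ID, 5449 genes, the brightest probe set standing for a gene). The 95th percentile of 1746 unmatched probe sets, 2.13, served as background. No sequences or coordinates are printed.

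Differences (npl3 deletion minus wild type) were tested over all 5449 genes with limma 3.58.1 in R 4.3.3 (lmFit, eBayes, no covariates), and a gene was called at an adjusted p of at most 0.05. Ratios were compared by exact permutation over the arrays. The procedure was tested on simulated data. Tables and figures used Python 3.11.15, pandas 2.3.3 and matplotlib 3.10.9. The number of arrays limits the precision.

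The members, lists and tests were chosen with earlier results of these data known. All 10 members are described, with the 2 largest called rises and falls of each list around the pathway, the neighbours of URA3 and of any member past 1 on the log2 scale, the genes of the strain labels and the mating-type markers. FUI1, FCY2, FUR1, URK1, YNK1, CPA1, ARG2, ARG8, ECT1 and the reading along the URA3 transcript were chosen after their values were seen. Some listed genes were not analysed here. Alternatives were each array left out, a replicate block, quantile normalization, median centring, dim genes left out, a trended robust variance, array weights, other handling of probe sets and stricter thresholds.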

Additional observations from a re-analysis of the deposited data

How the results depend on the processing

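Over 15 alternative fits, 6 genes (URA2, URA3, URA4, URA8, URA10 and PPR1) kept their direction and stayed called in every fit that tested them. URA10 was left out when the dimmest 25% of genes was removed. These fits read URA3 from 1 probe set. Of its control probe sets, the 3′ one passed the test (limma adjusted p = 0.014), but the middle and 5′ ones did not (0.12 and 0.77). The number of the 10 genes called was 6 to 8 over the 15 fits and at an adjusted p of at most 0.01. URA8 differed by 1.17 to 1.29, URA2 by -0.40 to -0.34, and URA7 by -0.19 to -0.12, with URA7 called in 7 of the 15 and URA1 in 4. Requiring a fold of at least 1.5, which by construction removes small differences, left 1 of the 10 genes, 9 of 20 called genes in the lists around the pathway and 923 of 3369 over all genes. With each array left out in turn, 6 to 7 of the 10 and 2926 to 3288 of all genes were called, URA7 minus URA8 changed by -1.45 to -1.30, and URA5 minus URA10 by -0.27 to -0.19. The replicate numbers shared by the groups did not pair the arrays: the deviations of same-numbered arrays correlated at -0.138, -0.073 and -0.187, and no array correlated best with its own number. With the number as a replicate block, 3035 genes and 6 of the 10 were called, URA7 being lost (adjusted p = 0.077), and the ratio changes stood at -1.39 and -0.22 (exact sign permutation p = 0.25 for each, the smallest possible).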
